A study of Mus musculus with 11 samples.

Results

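The 10 genes described here encode goblet cell mucus proteins: Muc2, Tff3, Clca1, Fcgbp, Zg16, Agr2, Retnlb, Ang4, Spink4 and Sytl2. They were chosen by name, with earlier results of these data known, from the 52550 genes of the count table. Each was present and passed the expression filter, as did 15044 genes in all. RNA of colonic epithelial cells was sequenced from 11 C57BL/6 RAG1 KO mice, 1 library per mouse. The CD group (n = 5) ate a diet with cellulose and the FFD group (n = 6) a fiber-free diet for 4 weeks, and all mice then received dextran sulfate sodium (DSS), a polymer that injures the colonic epithelium, in the drinking water for 5 days. No mouse without DSS was part of the comparison, and both groups lack the Rag1 recombinase, without which no mature lymphocytes with rearranged receptors form. The question was how the lack of dietary cellulose bears on the colonic epithelium during DSS colitis.

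Goblet cells are secretory cells of the epithelium that store mucus in granules and release it into the gut lumen. Muc2 is the gel-forming mucin that builds the inner and outer mucus layers of the colon, and it is folded with the help of Agr2, a disulfide isomerase of the endoplasmic reticulum. Fcgbp, Clca1, Zg16 and Tff3 are secreted with it: Fcgbp is bound into the mucus gel, Clca1 is a metalloprotease that loosens it, Zg16 is a lectin that binds bacterial cell walls, and Tff3 is a trefoil peptide of epithelial repair. Retnlb (RELM-beta) and Ang4 (an antimicrobial ribonuclease) are goblet cell products in defence, Spink4 is a small peptide of the Kazal inhibitor family, and Sytl2 is a Rab27 effector that works in the tethering of secretory granules.

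Of the 10 genes, 6 were higher in FFD mice after DSS: Clca1, Fcgbp, Zg16, Tff3, Ang4 and Sytl2. None was lower by edgeR's quasi-likelihood test, DESeq2 or limma-voom, and at an unadjusted p under 0.05 the edgeR counts were 7 higher and 0 lower. A gene was called where its p, adjusted by the Benjamini-Hochberg method over all tested genes, was under 0.05. By that rule, 36.8% of all tested genes were called, 18.2% higher and 18.6% lower in FFD mice. CPM scales each count to the normalized size of its library, and fold changes are FFD over CD, so that log2 values above 0 are genes higher in FFD. The median log2 fold change was 0.70 over the 10 genes and -0.033 over all tested genes. In bulk RNA, fewer cells of a type and less RNA per cell cannot be told apart. The labels give the number 1 to every CD sample and 2 to every FFD sample, so whatever that number stands for cannot be told apart from the diet.

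The epithelial markers Epcam, Krt8 and Vil1 were present in every mouse, and the summed CPM of the 6 epithelial markers lay between 9913 and 11890.4 for CD and between 11498 and 14326 for FFD. Of these 6 markers, 5 were higher in FFD mice, as were 5 of 8 colonocyte markers and 2 of 4 tested neutrophil markers, and 3 of 6 markers of dividing cells were lower. At an unadjusted p under 0.05 in edgeR, 6 of 6 dividing cell markers were lower. Their count was 5 with DESeq2, without the expression filter or without CD mouse 5. It was 6 without TMM or without FFD mouse 3, and 2 without CD mouse 3 or 4. The count of neutrophil markers was 1 without CD mouse 1, 2, 3 or 4 or FFD mouse 2 or 5. It was also 1 with limma-voom, a stricter filter or a replicate block. That of epithelial markers was 2 without TMM. Cd3e, the defining chain of T cells, held 18 counts over all 11 mice and Cd79a, that of B cells, 17. Of the 5 markers of T and B cells, only Ms4a1 passed the expression filter. It held 205 counts, with means of 0.83 CPM in CD and 0.69 in FFD mice. For the 6 macrophage markers the summed CPM was 6.60 to 9.26 with CD and 7.53 to 12.1 with FFD, and for the 5 neutrophil markers it was 24.0 to 64.9 and 66.8 to 225. Most of the neutrophil sum was Ly6g, with Csf3r at 0.36 to 0.99 CPM. Ly6g and S100a8 were the 2 higher neutrophil markers, and S100a8 had means of 0.88 CPM in CD and 2.46 in FFD mice. The part of all these cell type markers in the results was not tested. Library totals lay between 20853535 and 28588266 counts for CD and between 10374154 (FFD mouse 4) and 27973285 counts for FFD.

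Upstream sequences were at hand for 4 of the 10 genes: Fcgbp and Ang4, which were higher in FFD mice, and Muc2 and Agr2, which did not pass the test. They are shown so that genes that passed can be read beside genes that did not. Each is the 250 bases before the gene's start in RefSeq on GRCm38.p6, on the gene's own strand, and capitals mark the letters TATAAA, the E-box letters CAGATG or CAGCTG that Atoh1 can bind, and the STAT letters TTCNNNGAA or the same with 1 more N, all searched on both strands. Fcgbp lies at chr7:28070986-28071235 on the plus strand, Muc2 at chr7:141690090-141690339 on the plus strand, Agr2 at chr12:35992675-35992924 on the plus strand and Ang4 at chr14:51773591-51773840 on the minus strand.
Fcgbp: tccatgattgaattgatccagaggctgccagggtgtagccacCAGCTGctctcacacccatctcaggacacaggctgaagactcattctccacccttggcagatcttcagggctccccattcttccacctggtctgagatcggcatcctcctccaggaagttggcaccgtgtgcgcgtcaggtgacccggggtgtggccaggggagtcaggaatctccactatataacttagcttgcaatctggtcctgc
Muc2: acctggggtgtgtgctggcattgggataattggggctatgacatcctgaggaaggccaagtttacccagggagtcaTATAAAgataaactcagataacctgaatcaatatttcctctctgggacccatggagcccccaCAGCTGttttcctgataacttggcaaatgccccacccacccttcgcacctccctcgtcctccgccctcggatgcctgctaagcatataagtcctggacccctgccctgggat
Agr2: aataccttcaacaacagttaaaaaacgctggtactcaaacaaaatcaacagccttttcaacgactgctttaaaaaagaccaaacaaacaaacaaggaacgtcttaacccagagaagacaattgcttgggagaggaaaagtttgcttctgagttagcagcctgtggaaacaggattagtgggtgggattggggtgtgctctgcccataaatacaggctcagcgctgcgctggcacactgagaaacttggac
Ang4: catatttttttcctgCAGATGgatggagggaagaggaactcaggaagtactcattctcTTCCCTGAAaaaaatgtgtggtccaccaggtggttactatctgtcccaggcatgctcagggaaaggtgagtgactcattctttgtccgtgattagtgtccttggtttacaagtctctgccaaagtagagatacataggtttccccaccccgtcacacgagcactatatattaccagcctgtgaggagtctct
The E-box letters stood in Muc2, Fcgbp and Ang4, as in 25.5% of 32851 windows of this length. The STAT letters stood only in Ang4 among the 4 genes, against 12.4% of windows, and TATAAA only in Muc2, also against 12.4%. The Foxa letters TGTTTAC and TGTTTGC, found in 7.29% of windows, stood in none of the 4. Of the letters searched but not in capitals, the Cdx2 letters TTTATG or TTTATTG stood only in Agr2 (14.3% of windows) and the GC box GGGCGG only in Muc2 (32.7%). The capitals do not overlap one another.

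The gel-forming mucin itself did not pass the test. Muc2 (chromosome 7, 141690340 to 141754693, plus strand) stood at 2715, 1593, 1134, 1193 and 1728 CPM in CD mice 1 to 5, and at 1602 to 3201 (median 2490.3) in FFD mice. CD mouse 1 was above 4 of the 6 FFD mice and FFD mouse 1 below 2 of the 5 CD mice, so the diets overlapped. The means were 1673 ± 636 (SD, n = 5) and 2485 ± 574 (SD, n = 6), a log2 fold change of 0.57 ± 0.23 (SE, edgeR adjusted p = 0.064, 95% interval 0.082 to 1.06). Muc2 passed in 5 of 19 alternatives, whose adjusted p ran from 0.0079 to 0.16: with DESeq2 (adjusted p = 0.023), with limma-voom (0.043), without CD mouse 1 (log2 fold change 0.83, 0.0079), without FFD mouse 1 (0.67, 0.030), and with the length covariate described next (0.60, 0.010).

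The libraries also differed in how long and short genes moved. The median deviation from the diet mean, on the log2 scale, of 3416 genes with at least 6000 bases of exon, minus that of 672 genes under 1500, was 0.21 in CD mouse 1 and -0.16 in FFD mouse 1. Muc2, with 7127 bases of exon, deviated by 0.77 and -0.60 in these mice. The same held in CD mouse 4 (-0.17, with Muc2 at -0.41) and FFD mouse 4 (0.11, with Muc2 at 0.30). It did not hold in CD mouse 3 (0.024, with Muc2 at -0.49) or FFD mouse 6 (-0.012, with Muc2 at 0.40). Fcgbp, with 10497 bases of exon, deviated by 0.34 in CD mouse 1 and 0.23 in FFD mouse 1. Sytl2, with 13941 bases, deviated by 0.33 and -0.13. With the difference between long and short genes as a covariate, which was chosen after the data were seen, Muc2 passed as given above. Among long genes the median log2 fold change between the diets was 0.039, and among short genes it was -0.097.

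All 4 partners that are secreted with Muc2 into the mucus were higher in FFD mice. Clca1 (chromosome 3, 145003817 to 145032776) stood at 1278, 1431, 484, 773 and 1318 CPM in CD mice 1 to 5, and at 1858 to 5029.6 (median 2609) in FFD mice. Every FFD mouse was above every CD mouse, and FFD mouse 1 was the highest. The means were 1057 ± 408 (SD, n = 5) and 2966.5 ± 1137 (SD, n = 6), a fold of 2.81 (log2 1.49 ± 0.30, SE, edgeR adjusted p = 0.0031).

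Zg16 (chromosome 7, 127050156 to 127087328) stood at 1412, 1187, 769, 909 and 1559 CPM in CD mice 1 to 5. In FFD mice it ran from 1822 to 2733 (median 2219). Again no FFD mouse lay below a CD mouse, with means of 1167 ± 331 (SD, n = 5) and 2258 ± 402 (SD, n = 6), a fold of 1.93 (log2 0.95 ± 0.18, SE, edgeR adjusted p = 0.0025).

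Fcgbp (chromosome 7, 28071236 to 28120862) stood at 2718, 2381, 1285, 1733 and 3219 CPM in CD mice 1 to 5, and at 3194 to 5944 (median 4351) in FFD mice. Only FFD mouse 2 was below the highest CD mouse, CD mouse 5. The means were 2268 ± 770.0 (SD, n = 5) and 4495 ± 989 (SD, n = 6), a fold of 1.98 (log2 0.99 ± 0.22, SE, edgeR adjusted p = 0.0050). Fcgbp shared 4.99% of its 59-base words with 9530053A07Rik, which held 375 counts in all, so reads of both could be confused at that level.

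Tff3 (chromosome 17, 31125306 to 31129646) stood at 509.5, 576, 315, 420.3 and 651 CPM in CD mice 1 to 5, and at 617 to 996 (median 844) in FFD mice. Of the 6 FFD mice, 5 were above the highest CD mouse, and FFD mouse 2 was not. The means were 494 ± 132 (SD, n = 5) and 827 ± 164 (SD, n = 6), a fold of 1.67 (log2 0.74 ± 0.18, SE, edgeR adjusted p = 0.0076).

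Sytl2, the granule effector, was lower in level than the other 9 genes per length and was also higher in FFD mice. It stood at 67.8, 63.1, 40.6, 41.7 and 63.2 CPM in CD mice 1 to 5, and at 74.2 to 104.0 (median 82.4) in FFD mice. The diets did not overlap, with means of 55.3 ± 13.0 (SD, n = 5) and 87.8 ± 13.0 (SD, n = 6), a fold of 1.59 (log2 0.66 ± 0.15, SE, edgeR adjusted p = 0.0047). Clca1, Zg16 and Sytl2 were thus 3 of the 10 genes with no overlap between the diets, against 18.5% of all tested genes.

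**Figure D1:**
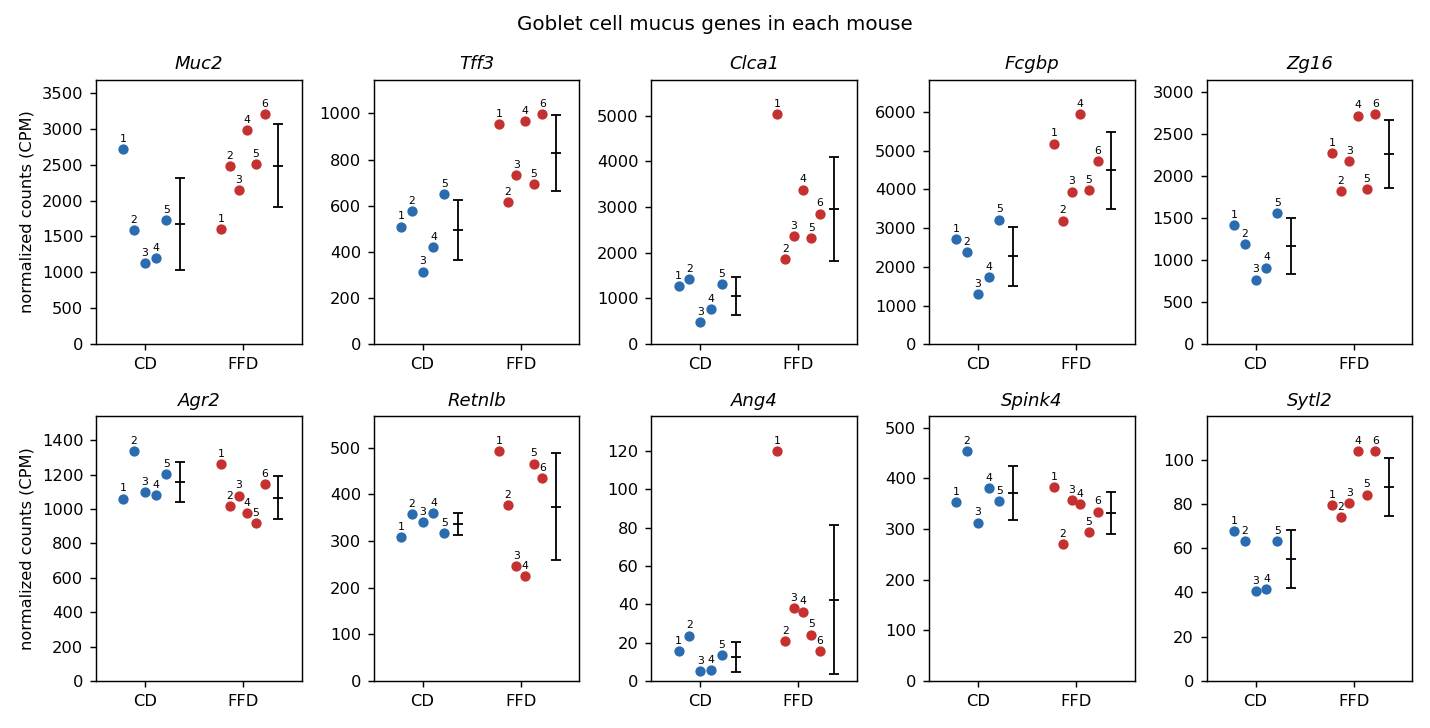
Normalized counts (CPM, linear axes from 0) of each gene in each mouse, with CD in blue and FFD in red; the number beside a point is the mouse and the bars are mean ± SD (n = 5 CD, n = 6 FFD). Clca1, Zg16 and Sytl2 do not overlap between the diets, and Ang4 in FFD mouse 1 (120.1 CPM) stands apart.

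Ang4, the antimicrobial ribonuclease, was scarce and varied widely. It stood at 15.8, 23.7, 4.96, 5.45 and 13.4 CPM in CD mice 1 to 5, and at 15.4 to 120.1 (median 30.2) in FFD mice. FFD mouse 1 stood far above the next FFD mouse at 38.0, and FFD mice 2 and 6 were below CD mouse 2. The means were 12.7 ± 7.81 (SD, n = 5) and 42.5 ± 39.0 (SD, n = 6), a log2 fold change of 1.75 ± 0.55 (SE, edgeR adjusted p = 0.025). The call was lost without FFD mouse 1 (log2 1.08, adjusted p = 0.0502), without CD mouse 3 (1.56, 0.059) and without CD mouse 4 (1.56, 0.059), over a range of adjusted p of 0.0096 to 0.059 in 19 alternatives. Ang4 shared 3.23% of its 59-base words with Ang5, which held 1 count.

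Agr2, Retnlb and Spink4 did not pass the test. Agr2, the isomerase that folds Muc2, ran from 1060.3 to 1337 CPM in CD and 919 to 1261 in FFD mice, with a log2 fold change of -0.12 (95% interval -0.32 to 0.088; edgeR adjusted p = 0.35). Spink4 ran from 313 to 454 CPM in CD and 271 to 382 in FFD mice, with a log2 fold change of -0.16 (interval -0.40 to 0.069; adjusted p = 0.25). A fall of both passed where libraries were scaled by their total counts alone, without TMM, which moved the median log2 fold change of all genes from -0.033 to -0.19 (Agr2 -0.27, adjusted p = 0.048; Spink4 -0.31, adjusted p = 0.049).

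Retnlb (RELM-beta) was even among CD mice and uneven among FFD mice. It lay at 309 to 360.4 CPM in CD mice, a coefficient of variation of 6.88%, and at 225 to 493.3 in FFD mice, one of 30.5%. Of the 6 FFD mice, 4 were above every CD mouse and 2, FFD mice 3 and 4, were below every CD mouse. The means of 337 ± 23.2 (SD, n = 5) and 374 ± 114 (SD, n = 6) differed by a log2 fold change of 0.15 (interval -0.25 to 0.55; edgeR adjusted p = 0.55). The difference in spread was not tested.

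**Figure D2:**
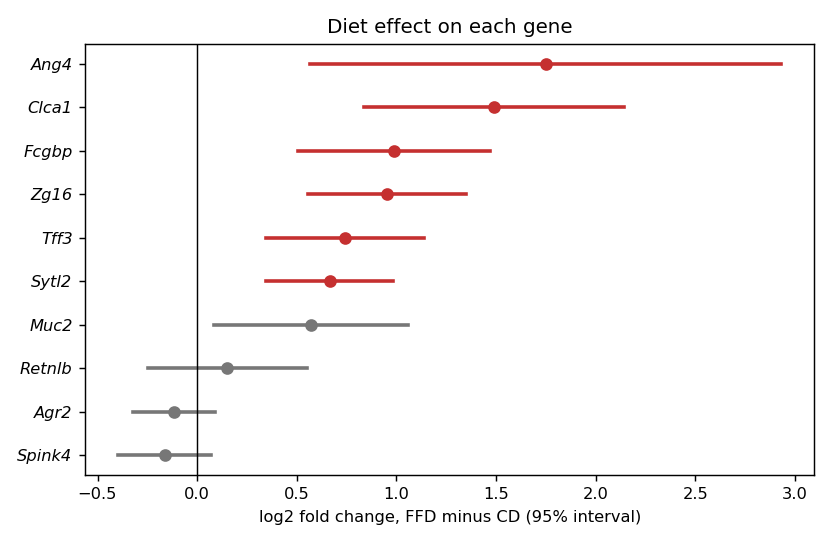
Log2 fold change of each gene, FFD minus CD, with its 95% interval from edgeR (n = 5 CD, n = 6 FFD); red marks genes with an adjusted p under 0.05. From Sytl2 to Ang4 6 genes are red, Muc2 (0.57) is not, and the intervals of Agr2, Spink4 and Retnlb span 0.

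Together the 10 genes took 0.907 ± 0.215% (SD, n = 5) of all counts in CD mice and 1.42 ± 0.253% (SD, n = 6) in FFD mice. The share ran from 0.626% in CD mouse 3 to 1.11% in CD mouse 1, and from 1.10% in FFD mouse 2 to 1.69% in FFD mice 1 and 4. Muc2 made up 16.6 to 26.0% of the 10 genes' counts in CD mice and 9.22 to 21.1% in FFD mice, where FFD mouse 1 had the lowest share. The share of Clca1 was 8.38 to 15.2% in CD mice and 15.8 to 28.95% in FFD mice.

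**Figure D3:**
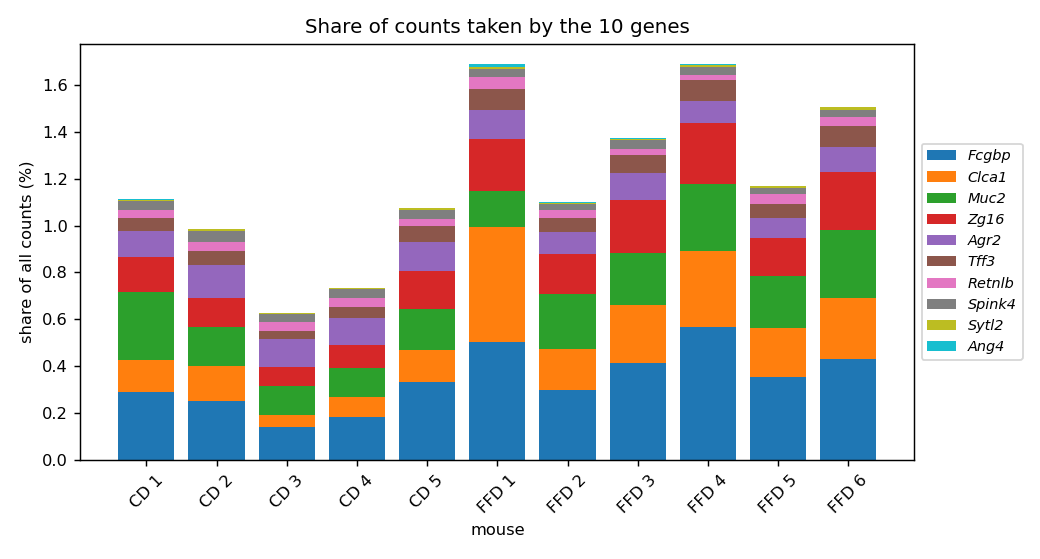
Share of all counts (%) taken by each of the 10 genes in each mouse, stacked, with CD mice to the left and FFD mice to the right. CD mouse 3 is lowest at 0.626%, and FFD mice 1 and 4 are highest at 1.69%.

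Compared per length, in CPM per kb of exon (GENCODE M21), the mean levels in CD mice ran in the order Tff3 (1003), Zg16 (929), Agr2 (895), Spink4 (778), Retnlb (484), Clca1 (279.8), Muc2 (235), Fcgbp (216), Ang4 (17.9) and Sytl2 (3.97). In FFD mice Zg16 (1797) came first and Tff3 (1677) next, followed by Agr2 (825), Clca1 (785), Spink4 (695), Retnlb (537), Fcgbp (428), Muc2 (349), Ang4 (59.9) and Sytl2 (6.30). In CD mice the ranges of neighbours overlapped from Tff3 down to Spink4 and from Clca1 down to Fcgbp, while Spink4 lay above Retnlb and Retnlb above Clca1 in every mouse. In FFD mice Zg16 and Tff3 overlapped each other and lay above Agr2, and the genes from Agr2 down to Muc2 each overlapped the next. Ang4 and Sytl2 were the lowest of the 10 in both diets, with no overlap with Muc2 or Fcgbp. The gene models of Muc2 are fragmentary, with 7127 bases of exon but a longest transcript of 2926, and over the longest transcript Muc2 came 5th in CD mice (572) and 4th in FFD mice (849). Over the longest transcript the top of the CD order was Zg16 (1614), Agr2 (1274) and Tff3 (1003), and in FFD mice Zg16 (3124) stayed above Tff3 (1677).

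**Figure D4:**
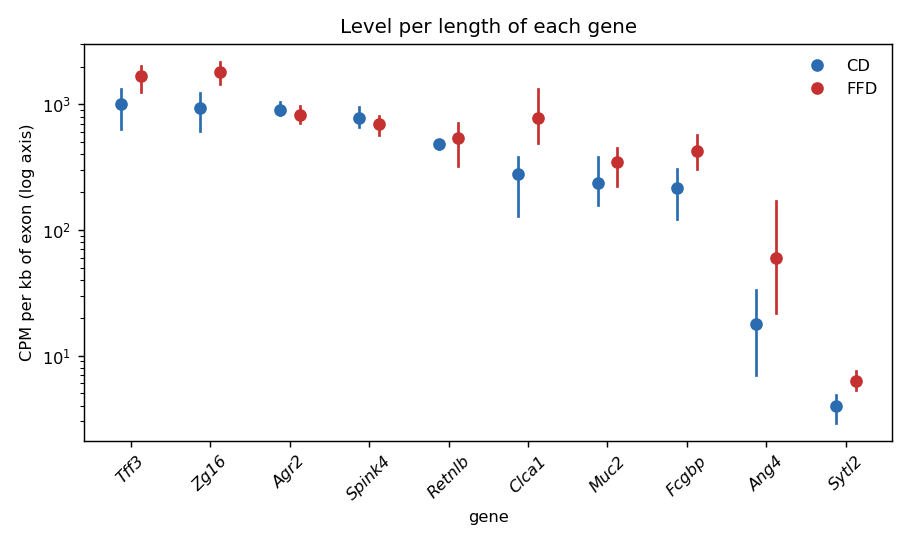
Mean level of each gene in CPM per kb of exon on a log axis, with CD in blue (n = 5) and FFD in red (n = 6); lines run from the lowest to the highest mouse. Tff3 (1003 in CD) and Zg16 (1797 in FFD) are highest on this scale, though over the longest transcript Zg16 is highest in CD too (1614), and Sytl2 (3.97 and 6.30) is lowest.

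To ask whether a gene's response to diet differed from that of Muc2, its reads were set against the Muc2 reads of the same mouse. In this fit, whose calls did not hold with the own spread of each gene as given below, Clca1 (log2 fold change of the ratio 1.04, edgeR adjusted p = 0.0025) and Ang4 (1.504, adjusted p = 4.2e-05) were higher, and Agr2 (-0.73, adjusted p = 0.027) and Spink4 (-0.77, adjusted p = 0.022) were lower. Of 15043 genes 45.8% were called, 1.05% higher and 44.7% lower, so a lower ratio was common and the 2 of 9 lower members lay below that share. The ratios of Fcgbp (0.45, interval -0.088 to 0.996), Zg16 (0.39, -0.16 to 0.94), Tff3 (0.17, -0.39 to 0.73), Sytl2 (0.081, -0.47 to 0.64) and Retnlb (-0.47, -1.03 to 0.086) did not pass. Without FFD mouse 1 the Clca1 ratio was 0.58 (adjusted p = 0.045) and that of Ang4 lost its call (0.49, adjusted p = 0.11), while Retnlb became lower (-0.76, adjusted p = 0.013), as it did without CD mouse 1 (-0.64, adjusted p = 0.031). Agr2 and Spink4 each lost their call without CD mouse 2, 3 or 4 or FFD mouse 2, 4, 5 or 6.

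The ratios also overlapped between the diets for all 9 genes, while 2.47% of genes had no overlap. Per Muc2 read, Clca1 gave 0.427 to 0.898 reads under CD and 0.751 to 3.14 under FFD, with FFD mouse 1 the highest. Agr2 gave 0.390 to 0.969 reads per Muc2 read under CD and 0.327 to 0.787 under FFD. The fit gave all genes 1 shared spread, which understates that of Ang4. With the own spread of each gene, an alternative chosen after the data were seen, none of the 4 passed (adjusted p = 0.096 for Clca1, 0.23 for Ang4, 0.093 for Agr2 and 0.086 for Spink4). At an unadjusted p under 0.05, 1 was higher and 2 lower. That alternative called 2 of all 15043 genes, so hardly any gene could pass it.

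Within a diet, mice that were high in one secreted partner were high in the others. After each diet's mean was subtracted from log2 CPM, Fcgbp, Tff3, Zg16 and Clca1 gave Pearson r of 0.776 to 0.940 over their 6 pairs in 11 mice. CD mouse 3 was the lowest CD mouse in 8 of the 10 genes and FFD mouse 2 the lowest FFD mouse in 6. FFD mouse 1 was the highest FFD mouse in 5 and FFD mouse 6 in 4. These points share their libraries, so the values are a description.

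For Muc2, r was 0.818 with Sytl2, 0.661 with Zg16, 0.520 with Fcgbp, 0.407 with Tff3, 0.260 with Clca1, -0.047 with Ang4, -0.123 with Spink4, -0.284 with Retnlb and -0.287 with Agr2. Leaving out 1 mouse at a time moved several of these widely: r ranged from 0.025 to 0.670 with Clca1, from 0.230 to 0.611 with Tff3, from -0.230 to 0.399 with Ang4 and from -0.402 to -0.013 with Agr2, against 0.780 to 0.860 with Sytl2. Of 10404 genes compared, the non-members most like Muc2 were Mia3 (r = 0.954), Ano7 (0.954), Muc5b (0.952), Mpp3 (0.941) and Nbeal1 (0.941). These and the r values above were not adjusted for the difference between long and short genes, with which Muc2 moved in some mice and not in others. The part of that difference in the r values was not tested. Mia3 is an endoplasmic reticulum export receptor for bulky cargo, and Muc5b is the gel-forming mucin of the airways. Capn9, a calpain of the gut, was nearest to Fcgbp (0.967), Zg16 (0.939) and Tff3 (0.925). Nearest to the others were Gal3st2 for Clca1 (0.968), Surf1 for Agr2 (0.944), Tyw5 for Retnlb (0.952), Pttg1ip for Spink4 (0.945), Hsd17b2 for Sytl2 (0.948) and Klhl7 for Ang4 (0.894, or 0.810 without FFD mouse 1).

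**Figure D5:**
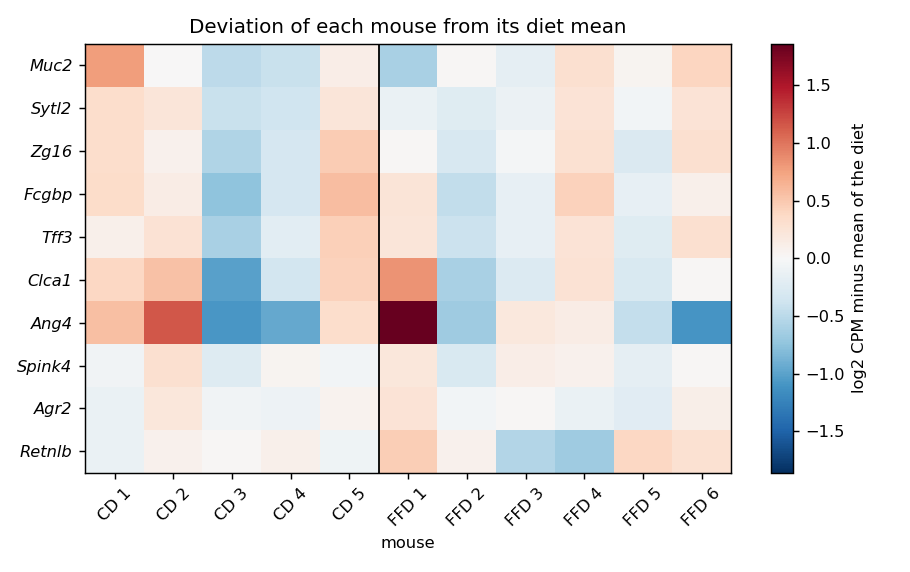
Deviation of each mouse from the mean of its diet in log2 CPM, with genes in rows, mice in columns and a line between CD and FFD. CD mouse 3 is low in most genes, Clca1 and Ang4 are high in FFD mouse 1 where Muc2 is low (-0.60), and Agr2 and Spink4 vary little.

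The transcription factors that form goblet cells did not move one way. Of 11 tested, 2 were higher and 4 lower by edgeR, with a median log2 fold change of -0.29, and 5 did not pass. At an unadjusted p under 0.05, 2 were higher and 5 lower. DESeq2 and limma-voom each gave 2 higher and 3 lower. Klf4, a factor of goblet cell maturation, was higher (573 ± 62.7, SD, n = 5, to 785 ± 102 CPM, SD, n = 6, log2 0.45, edgeR adjusted p = 0.0055), as was Xbp1, a factor of the unfolded protein response (0.23, adjusted p = 0.027). Foxa2 (-0.69, adjusted p = 0.011) and Foxa3 (-0.32, adjusted p = 0.039), forkhead factors of the secretory lineage, were lower. Spdef (-0.29, adjusted p = 0.048), a driver of goblet cell differentiation, and Bhlha15 (-0.41, adjusted p = 0.046), a factor of secretory cell structure, were also lower. Atoh1, which sets the secretory fate, stood at 45.4 ± 8.31 CPM in CD and 43.0 ± 9.55 in FFD mice (SD; log2 -0.085, adjusted p = 0.70). Spdef, Bhlha15 and Atoh1 were named after their values were seen. The 4 lower calls fell to 1 without CD mouse 2 or 3 or FFD mouse 2, 3, 4 or 5 and to 2 without CD mouse 1, 4 or 5, and the 2 higher calls to 1 without CD mouse 1 or 3 or FFD mouse 2, 4 or 5.

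Of 19 tested genes of mucus granule assembly and release or of mucus processing, 9 were higher and none lower by edgeR. Over all tested genes the shares were 18.2% higher and 18.6% lower. At an unadjusted p under 0.05 in edgeR, 11 of the list were higher and 1 lower. DESeq2 gave 10 and 0, and limma-voom 9 and 0. Which cells expressed these genes was not measured. Rab27a, the small GTPase that Sytl2 binds on granules, rose from 30.9 ± 4.29 (SD, n = 5) to 51.7 ± 6.97 CPM (SD, n = 6, log2 0.74, edgeR adjusted p = 0.0011). Mep1b, a subunit of the meprin protease that detaches mucus, rose by a log2 fold change of 1.29 (adjusted p = 0.0011), and the crosslinking enzyme Tgm2 by 1.10 (adjusted p = 0.0056). Without TMM 5 were higher and 3 lower.

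Of 14 tested relatives of the 10 genes, 8 were higher and none lower by edgeR. Over all tested genes the shares were 18.2% higher and 18.6% lower. At an unadjusted p under 0.05 in edgeR the list gave 9 and 0, as did DESeq2, and limma-voom gave 8 and 0. Most of the 8 higher relatives were Clca genes, and no tested relative of Ang4 or Sytl2 passed. Clca4a rose from 73.5 ± 15.8 (SD, n = 5) to 258 ± 77.5 CPM (SD, n = 6, log2 1.81, edgeR adjusted p = 7.0e-04). Clca4b (2.37, adjusted p = 0.0025) and Clca3a2 (1.35, adjusted p = 0.010) rose too. How many read-length words these Clca genes share with each other was not measured, so their single values are uncertain to that degree. Spink1, a secreted trypsin inhibitor, rose by 0.76 (adjusted p = 0.0059).

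IL-4, IL-13 and IL-22 act on the epithelium through receptors that signal by STAT6 or STAT3. Of 12 tested receptors and signals of these cytokines, 8 were higher and none lower by edgeR (at an unadjusted p under 0.05, 8 and 0; DESeq2 8 and 0, limma-voom 7 and 0). Il22ra1, the epithelial chain of the IL-22 receptor, rose from 14.7 ± 1.07 (SD, n = 5) to 26.7 ± 4.61 CPM (SD, n = 6, log2 0.86, edgeR adjusted p = 8.6e-04). Il13ra1, the chain that binds IL-13, rose by 0.60 (adjusted p = 0.0011), the kinase Jak1 by 0.36 (adjusted p = 0.0022) and the shared receptor chain Il10rb by 0.44 (adjusted p = 0.0035).

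Markers of other secretory cells were also counted. Of 4 tested markers of Paneth and deep crypt secretory cells, 2 were lower, Reg4 (183 ± 79.8, SD, n = 5, to 61.6 ± 48.3 CPM, SD, n = 6, log2 -1.59, edgeR adjusted p = 0.032) and Mmp7 (-1.32, adjusted p = 0.0011). None was higher at any of edgeR, DESeq2 or limma-voom, or at an unadjusted p under 0.05 in edgeR. The count of 2 fell to 1 without CD mouse 1 or 2 or FFD mouse 2 or 6. It was 3 in other settings, among them DESeq2, no TMM and leaving out CD mouse 4 or 5. At an unadjusted p under 0.05 in edgeR, 3 were lower. Of 6 enteroendocrine markers 3 were higher, and of 4 tested tuft cell markers 2.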

How the data were processed

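Colonic epithelial cells had been shaken off in DTT and EDTA and cleaned on a Percoll gradient, and poly(A) RNA was read as single reads of 59 bp. Per the paper's methods the authors mapped the reads to GRCm38, and they deposited raw counts of reads per gene. FastQC, R 3.5.1 and DESeq2 1.22.2 appear in the submitters' processing notes. Not given in the sources used here: the gene annotation, strand setting and treatment of multi-mapped reads.

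Genes were filtered with filterByExpr (minimum count 10, minimum total count 15), scaled by TMM and tested for diet alone with the quasi-likelihood test of edgeR 4.0.16 in R 4.3.3, two-sided, and Benjamini-Hochberg adjustment ran over 15044 genes. For the ratio to Muc2, the Muc2 count replaced the library size. Correlations used log2 CPM (prior count 2) of genes with a mean of at least 5 CPM. Intervals are 95% and SE is the log2 fold change over the root of F. Counts of any 2 libraries within a diet differed beyond sampling noise (smallest chi-square over its degrees of freedom 13.0), so none was merged. Alternatives were DESeq2 1.42.0, limma-voom (limma 3.58.1), other scalings and filters, a replicate block, a length covariate and each mouse left out. The edgeR test of the diet effect was checked on simulated counts. The fits relative to Muc2, the alternatives and the correlations were not.

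The members and lists were chosen with earlier results of these data known, so list counts are descriptions. The rule for named list genes was not applied to the cell type markers. Apart from Spdef, Bhlha15 and Atoh1, the other named list genes are, per list, the 4 tested genes of smallest p plus any called against the majority. Named like genes are the 5 nearest to Muc2 and the 1 nearest to each other member, predicted genes left out. A gene that this rule selects is not reported here, though it remains in the counts. The coordinates are those of GENCODE M21 on GRCm38.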

Additional observations from a re-analysis of the deposited data

Results flagged for a closer look

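In 6 of 128 groups of 5 or 6 mice searched, 1 mouse stood apart from the rest of its diet by Dixon's criterion, and chance sets apart about 1 in 20 groups. Ang4 in FFD mouse 1 was 120.1 CPM, with the next FFD mouse at 38.0. Foxa2 in CD mouse 2 was 35.0 CPM, with the next at 24.9. Epcam in CD mouse 2 was 1750.4 CPM, with the next at 1648. Krt8 in FFD mouse 3 was 4875 CPM, below the next at 5589.6. In FFD mouse 6, Chga was 96.4 CPM, with the next at 70.1, and Pcna was 95.9 CPM, below the next at 135.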

How the results depend on the processing

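Clca1, Fcgbp, Zg16, Tff3 and Sytl2 kept their direction and passed in all 19 alternatives to the diet test. Without TMM, 2 members were lower (Agr2 and Spink4), Retnlb turned to -0.014, and 1636 of all genes were higher and 4863 lower, against 2740 and 2792. With DESeq2 and with limma-voom 7 members were higher, Muc2 being added. The labels do not say whether the numbers shared by CD and FFD mice pair them. The correlations of deviations between mice of the same number were -0.18, -0.28, 0.18, -0.26 and 0.23, and 2 of 5 CD mice correlated best with their own number. These values cannot show whether the mice were paired. With the replicate block, 1829 of all genes were lower and the calls of the 10 genes did not change in the diet test. Relative to Muc2, 0 members were then higher and 0 lower (at an unadjusted p under 0.05, 2 higher and 0 lower). With that block, genes of mucus granules and mucus processing fell from 9 higher to 5 and tuft cell markers from 2 to 0. With the own spread of each gene 0 were higher and 0 lower relative to Muc2, in a fit that called 2 of 15043 genes. Leaving out 1 mouse at a time, 1 to 2 members were higher relative to Muc2 (1 without FFD mouse 1) and 0 to 3 lower. The lower count was 3 without CD mouse 1 or FFD mouse 1, where Retnlb was added, and 0 without CD mouse 2, 3 or 4 or FFD mouse 2, 4, 5 or 6. The log2 fold change of the ratio of Tff3 to Muc2 turned to -0.050 (range -0.050 to 0.25) without FFD mouse 1, and that of Sytl2 to -0.015 without CD mouse 1 and -0.029 without FFD mouse 1 (range -0.029 to 0.14); the cause was not tested. Depth limits Ang4 most in CD mouse 3, where it held 112 counts, the lowest of the 10 genes in any mouse.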
